A study of Mus musculus with 11 samples.

Results

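Microglia from mice that lacked a copy of Csf1r were set directly against microglia from mice that lacked a copy of Csf2. The comparison used 6 of the 11 libraries of the series. There were 3 libraries from Csf1r+/- mice (Csf1r_het) and 3 from Csf2+/- mice (Csf2_het), and the wild-type libraries did not serve as a reference. All genes with a mean of at least 10 normalized counts over the 11 libraries were members, which kept 13223 of the 14739 genes of the table and left out 1516. A normalized count is the number of reads assigned to a gene, divided by a size factor for the library. RNA had been sequenced from cells that carried Tmem119, a surface protein of microglia, sorted from the cerebrum of C57BL/6 mice. All groups shared the strain, the sort and an advanced age. The Csf1r_het mice were 20, 24 and 21 months old (replicates 1, 2 and 3) and the Csf2_het mice 21 months. The labels name no Cre or transgene and do not say how either allele was made. Wild-type libraries (WT, n = 3, 21 months) and libraries from Csf1r+/-; Csf2+/- mice (Dhet, n = 2, 21 and 24 months) added to the estimate of the spread and are given for context. The ages differed within Csf1r_het and within Dhet, so the replicates of these groups came from different mice. For WT and Csf2_het, all at 21 months, the labels do not say that replicates were separate animals. The p-values measure the spread between these libraries. The part of age in the results was not tested.

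Csf1r encodes a receptor tyrosine kinase for the cytokines CSF-1 and IL-34, and microglia need its signal to survive and to keep their number. The product of Csf2 is GM-CSF, also called CSF-2, which lymphocytes and endothelial cells secrete and which acts on myeloid cells through a specific chain, Csf2ra, and a signalling chain, Csf2rb, with JAK2 and STAT5 downstream. The CSF-1 signal is known to maintain resident macrophages, whereas GM-CSF is known for inflammatory activation and for the growth of monocyte-derived cells. A direct comparison of the genotypes asks whether loss of a copy of the receptor and loss of a copy of the other cytokine leave aged microglia in different states.

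Few genes separated the genotypes beyond the spread between libraries. Of the 13223 genes, 3 passed limma at an adjusted p of 0.05 (0.0227%), all lower in Csf1r_het, and none was protein coding. These were Rps3a2 and Rps3a3, pseudogene copies of the ribosomal protein gene Rps3a1, and Gm28438, a nuclear copy of the mitochondrial gene mt-Nd3. Protein coding genes with the lowest p among those higher in Csf1r_het were genes of monocytes and lymphoid or myeloid signalling, led by Vav3, Ly6c2, Ms4a4c, Map4k1 and Ccr2. None of these passed limma, while all 5 passed DESeq2, against 0.393% of all genes in this direction. The 5 were picked by low p in the same libraries, so the DESeq2 calls are not independent support. Genes typical of resting microglia lay on the other side, with 22 of the 24 in that list below 0 and none that passed.

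Reads assigned to genes ran from 21037819 (Csf1r_het replicate 1) to 53081638 (Csf2_het replicate 2). Csf1r_het replicate 2 stood apart, with 58.8% of its counts in haemoglobin genes against 16.1% to 40.2% in the other libraries and 15.6% of genes at 0 against 4.98% to 9.88%. So did Dhet replicate 2 for genes of the sex chromosomes, with 4.02 normalized counts of Xist and 717 of Ddx3y, where the other libraries held at least 3011 of Xist and at most 16.3 of Ddx3y. Limma called 2 genes without Csf1r_het replicate 2 (Rps3a2 and Rps3a3) and 1 without Dhet replicate 2 (Rps3a2). The sort marker Tmem119 was present in every library, at 15711 to 16736 normalized counts in Csf1r_het and 18805 to 31939 in Csf2_het. Of the wild-type libraries, replicate 2 held 5432 and the others 17695 and 19084. Mitochondrial genes (names in mt-) took 9.10%, 9.13% and 10.5% of counts in Csf1r_het and 19.5%, 9.47% and 15.5% in Csf2_het. Their share was 6.40%, 10.5% and 7.66% in WT and 15.9% and 6.31% in Dhet, and its part in the results was not tested. With 3 libraries a group the median 95% interval of a log2 difference reached 1.24 to either side. For 1705 genes (12.9%) the whole interval lay between -1 and 1.

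Csf1r was examined first, since its copy number separates the groups. The Csf1r_het libraries held 17017, 40567 and 24022 normalized counts of Csf1r, and the Csf2_het libraries 53873, 58211 and 66762. All 3 Csf1r_het libraries lay below all 3 Csf2_het libraries, in the direction of the labels. The means were 27202 ± 12093 and 59615 ± 6558 (SD, n = 3 each), a log2 difference (Csf1r_het minus Csf2_het, here and below) of -1.22 with a standard error (SE) of 0.45. The Csf1r difference had an unadjusted p = 0.0175 and did not pass over all genes (limma adjusted p = 1). The WT libraries held 93319, 41261 and 63538, so WT replicate 2 lay next to Csf1r_het replicate 2. Levels of Csf2 itself were not analysed here, nor those of Il34 and Csf3, so the other deletion has no such check.

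None of the other receptors of the family passed. Csf2ra, the chain that binds GM-CSF, held 1195, 1094 and 1217 normalized counts in Csf1r_het and 843, 1091 and 841 in Csf2_het. The lowest Csf1r_het library lay just above the highest Csf2_het library, and the log2 difference of Csf2ra was 0.35 (SE 0.33, limma adjusted p = 1). Csf2rb, the signalling chain shared by GM-CSF, IL-3 and IL-5, held 1203, 2595 and 1765 against 1306, 1425 and 1338. Csf2rb overlapped between the groups (0.38, SE 0.32, limma adjusted p = 1), as did its IL-3-restricted paralog Csf2rb2 (0.32, SE 0.55, limma adjusted p = 1). The Csf2rb2 value changed sign, to -0.071, without Csf1r_het replicate 2. For Csf2ra the 95% interval ran from -0.36 to 1.05 and for Csf2rb from -0.31 to 1.07, so a difference of up to about 1 in favour of Csf1r_het fits within both intervals.

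The ligand Csf1 lay at 232, 520.1 and 315 normalized counts in Csf1r_het and 488, 329 and 371 in Csf2_het. The groups overlapped (log2 difference -0.22, SE 0.53, limma adjusted p = 1), and the sign of Csf1 turned without Csf1r_het replicate 1 (0.051). Csf3r, the G-CSF receptor, held 1178, 1640.3 and 1948 against 2432, 2714 and 2049, with Csf1r_het below Csf2_het in every library (-0.62, SE 0.36, limma adjusted p = 1). Il3ra, the IL-3-specific chain, held 64.7, 276 and 76.9 against 44.9, 24.4 and 42.2, again without overlap (1.60, SE 0.86, limma adjusted p = 1). The high Il3ra mean rested on Csf1r_het replicate 2. In all, 7 of the 10 genes of the list of CSF ligands and receptors were tested and none passed limma, edgeR or DESeq2. Over all genes, 5.98% lay wholly above and 6.1% wholly below in Csf1r_het. The list had 2 genes of each kind, and 1 gene, Csf1r, that was lower at an unadjusted p under 0.05, against 1.94% of all genes.

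**Figure D1:**
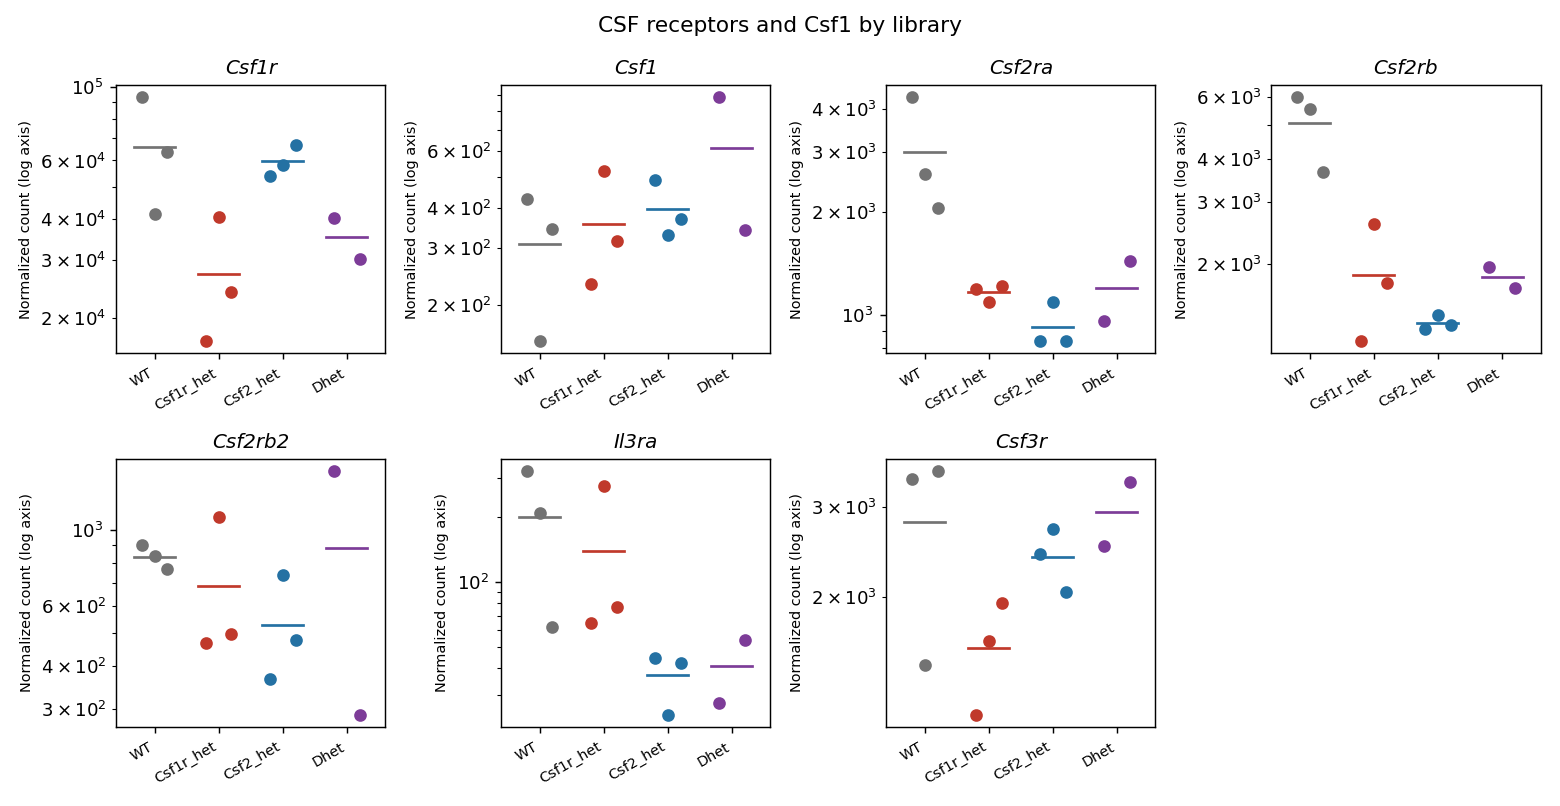
Normalized counts (log axis) of the 7 measured CSF receptors and ligands in each library (points) by group, with the group mean as a line. Csf1r in the 3 Csf1r_het libraries (17017 to 40567) sits below the 3 Csf2_het libraries (53873 to 66762), while Csf2rb, Csf2rb2 and Csf1 overlap.

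The 3 genes that passed are near copies of genes expressed in all libraries, so their sequences are shown beside those of their parents. Rps3a1 (ENSMUSG00000028081.6, chromosome 3, 86137940 to 86142702, reverse strand, mm10) encodes a protein of the small ribosomal subunit. Rps3a2 (ENSMUSG00000062611.4, chromosome 14, 88123017 to 88123808, reverse strand) and Rps3a3 (ENSMUSG00000059751.7, chromosome 13, 108670603 to 108671397, forward strand) are typed as processed pseudogenes, that is, copies of a spliced messenger RNA set back into the genome. In the GENCODE vM21 transcripts, Rps3a2 differed from the coding sequence of Rps3a1 at 4 of 792 aligned bases (99.5% identity) and Rps3a3 at 9 of 795 (98.9%). Both copies shared 2 substitutions, T216C and T534C, written as the base of Rps3a1, its position counted from 1 at the first base of the coding sequence, and the base of the copy. On mm10 these positions of Rps3a1 are bases 86141377 and 86139069 of chromosome 3. The windows below cover positions 156 to 276 and 474 to 594, 5′ to 3′, and capitals mark the bases at which Rps3a1 and a copy differ.
Rps3a1: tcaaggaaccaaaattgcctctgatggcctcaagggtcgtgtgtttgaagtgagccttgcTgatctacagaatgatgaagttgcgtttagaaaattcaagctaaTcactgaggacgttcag
Rps3a2: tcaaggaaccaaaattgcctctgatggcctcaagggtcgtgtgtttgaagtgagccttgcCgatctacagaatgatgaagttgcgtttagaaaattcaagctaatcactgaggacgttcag
Rps3a3: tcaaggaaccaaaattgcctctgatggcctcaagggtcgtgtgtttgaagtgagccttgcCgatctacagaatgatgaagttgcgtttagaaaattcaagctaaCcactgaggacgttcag
Rps3a1: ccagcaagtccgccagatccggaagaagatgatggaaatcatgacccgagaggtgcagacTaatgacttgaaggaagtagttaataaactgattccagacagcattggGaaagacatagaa
Rps3a2: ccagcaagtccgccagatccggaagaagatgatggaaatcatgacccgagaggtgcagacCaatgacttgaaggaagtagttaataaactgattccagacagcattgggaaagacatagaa
Rps3a3: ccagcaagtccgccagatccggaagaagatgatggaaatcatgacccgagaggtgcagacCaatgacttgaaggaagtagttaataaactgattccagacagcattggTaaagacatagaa

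Gm28438 (ENSMUSG00000101939.1, chromosome 1, 24612775 to 24613119, reverse strand, mm10) is typed as an unprocessed pseudogene and is a stretch of mitochondrial sequence in the nuclear genome. Its parent mt-Nd3 (chromosome M, 9459 to 9806, forward strand) encodes a subunit of respiratory complex I. Over 345 aligned bases Gm28438 differed from mt-Nd3 at 1 position (99.7% identity), T3C, counted from the first base of mt-Nd3, which is base 9461 of the mitochondrial genome. The first 120 bases of each are shown, with that position in capitals.
mt-Nd3: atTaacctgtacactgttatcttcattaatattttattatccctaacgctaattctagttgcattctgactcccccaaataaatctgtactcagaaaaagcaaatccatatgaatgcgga
Gm28438: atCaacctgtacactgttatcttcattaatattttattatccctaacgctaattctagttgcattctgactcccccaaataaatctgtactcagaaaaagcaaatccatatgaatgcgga

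Only part of each copy can be told from its parent. Of the stretches of 31 bases, the length that kallisto uses by default, 646 of 762 in Rps3a2 (84.8%) also occur in Rps3a1, and 514 of 765 in Rps3a3 (67.2%). In Gm28438, 312 of 315 also occur in mt-Nd3. Kallisto divides reads that match several transcripts among them by an estimate, so the split between copy and parent is uncertain for all 3 genes. The deposited counts also cannot tell reads of a copy from reads of a parent gene that carries the base of the copy in some of the mice.

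Hardly any reads were assigned to Rps3a2 in Csf1r_het, unlike in Csf2_het. The Csf1r_het libraries held 7.92, 1.48 and 9.48 normalized counts and the Csf2_het libraries 1292, 1094 and 1463. The groups were far apart, with means of 6.29 ± 4.24 and 1283 ± 185 (SD, n = 3 each). The log2 difference was -7.70 (SE 0.86, limma adjusted p = 0.00896), and the mean was 204-fold lower in Csf1r_het. WT libraries held 8.99, 8.74 and 1.15, at the level of Csf1r_het, and Dhet libraries 1535 and 1378, at the level of Csf2_het. Rps3a2 passed in 19 of 25 alternatives in which it was tested as a gene of its own.

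Rps3a3 had the same order of libraries. It held 1.32, 0 and 5.26 normalized counts in Csf1r_het and 538, 442 and 828 in Csf2_het. Csf2_het libraries lay above all others but the Dhet libraries, which held 576 and 477, while WT held 1.93, 3.88 and 0. The log2 difference of Rps3a3 was -7.90 (SE 1.04, limma adjusted p = 0.0228), and Rps3a3 passed in 12 of 25 alternatives.

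Gm28438 was the third gene that passed, and its levels in Csf2_het were spread widely. The Csf1r_het libraries held 14.5, 23.7 and 12.6 normalized counts and the Csf2_het libraries 62327, 14513 and 1608. Csf2_het replicate 3 thus lay far below the other 2, though above every Csf1r_het and WT library (5.78, 131 and 11.5 in WT). The Dhet libraries held 23295 and 3964. The log2 difference of Gm28438 was -9.35 (SE 1.26, limma adjusted p = 0.0228), edgeR did not call it (adjusted p = 0.136), and it passed in 12 of 25 alternatives. Gm28438 has a predicted name and fell outside the naming rule. It is named because it is 1 of only 3 calls.

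The parents were then read together with their copies. Rps3a1 held 11085, 6646 and 15484 normalized counts in Csf1r_het and 3334, 3409.6 and 5321 in Csf2_het, so the parent lay on the opposite side to its copies (log2 difference 1.41, SE 0.43, limma adjusted p = 1). Rps3a2 and Rps3a3 together took 0.0833%, 0.0223% and 0.0951% of the summed counts of the 3 genes in Csf1r_het and 35.4%, 31.1% and 30.1% in Csf2_het. The share was 0.0167% to 0.099% in WT and 34.9% and 37.1% in Dhet, so it separated libraries from mice with both Csf2 copies from those with 1. Summed, the 3 genes held 11080 ± 4426 in Csf1r_het and 5907 ± 1481 in Csf2_het (n = 3 each), a log2 difference of 0.85 (SE 0.43, limma adjusted p = 1, 95% interval -0.07 to 1.78). With the 3 genes summed limma called 0 genes (589 at an unadjusted p under 0.05). This alternative was chosen after seeing the data.

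The mitochondrial pair behaved less evenly. Gm28438 took at most 0.105% of the summed counts of mt-Nd3 and Gm28438 in Csf1r_het, at most 0.141% in WT, and 74.8%, 72% and 2.33% in Csf2_het. In Dhet the share was 73.9% and 68.3%. The mt-Nd3 libraries held 19056, 22463 and 33901 normalized counts in Csf1r_het and 21022, 5649 and 67429.7 in Csf2_het, with full overlap (log2 difference 0.29, SE 0.90, limma adjusted p = 1). Summed, the pair had a log2 difference of -0.999 (SE 0.81, limma adjusted p = 1), and limma then called 2 genes, Rps3a2 and Rps3a3.

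**Figure D2:**
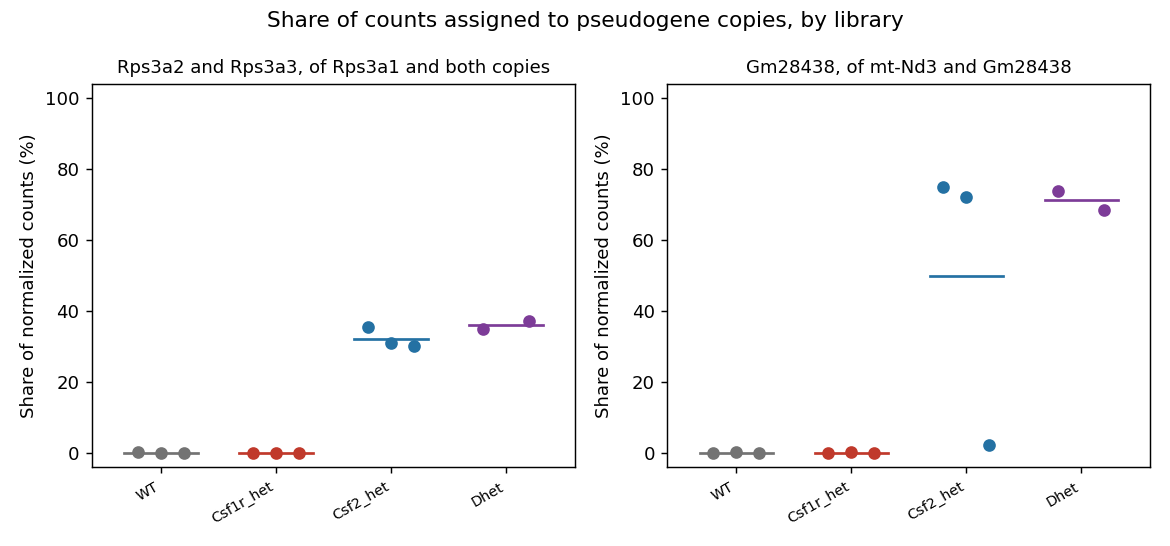
Share of normalized counts (%) in the pseudogene copies, by library (points) and group, with the group mean as a line. Rps3a2 and Rps3a3 take under 0.1% in WT and Csf1r_het and 30.1% to 37.1% in Csf2_het and Dhet, and Gm28438 takes 2.33% in Csf2_het replicate 3 against 68.3% to 74.8% in the other libraries with a single Csf2 copy.

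The libraries that the contrast did not use gave the same order. Between Dhet and WT, where limma called 0.529% of genes, Rps3a2 had a log2 difference of 7.94 (SE 0.96, limma adjusted p = 0.00638). Rps3a3 had 7.76 (SE 1.16, limma adjusted p = 0.0131) and Gm28438 8.75 (SE 1.41, limma adjusted p = 0.0177), all higher in Dhet. The parents Rps3a1 (-1.75, limma adjusted p = 0.197) and mt-Nd3 (-2.74, limma adjusted p = 0.378) did not pass. This comparison was chosen for these genes after their values were seen, and it shares a spread estimate with the main contrast.

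A pseudogene also stood among the genes higher in Csf1r_het. Rps13-ps2 (ENSMUSG00000069972.6, chromosome 7, 88530446 to 88530898, reverse strand) held 756, 293 and 738 normalized counts in Csf1r_het and 0 in each Csf2_het library. Its Csf1r_het level was at least 751-fold higher than the floor of 3 reads over the Csf2_het group, and it did not pass limma (adjusted p = 0.279). WT replicate 2 was also at 0, beside 668 and 294 in the other WT libraries. Every stretch of 31 bases of Rps13-ps2 (423 of 423) occurs in Rps13, a protein of the small ribosomal subunit, so the 2 cannot be told apart by such stretches. Summed with Rps13, the log2 difference was 0.40 (SE 0.65, limma adjusted p = 1).

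Among the protein coding genes higher in Csf1r_het, Vav3 had the lowest p. Vav3, a guanine nucleotide exchange factor for small GTPases, held 354, 450.4 and 503 normalized counts in Csf1r_het and 42.8, 81.4 and 36.8 in Csf2_het. No library overlapped, and the means of Vav3, 436 ± 75.8 and 53.7 ± 24.2 (n = 3 each), were 8.12-fold apart (log2 difference 3.07, SE 0.47, limma adjusted p = 0.0694). Map4k1, a kinase of lymphoid and myeloid receptor signalling, held 257, 308 and 264 against 28.2, 19.6 and 57.2. The Map4k1 groups were separate (3.08, SE 0.56, limma adjusted p = 0.181). Neither passed limma or edgeR (adjusted p = 0.0704 for Vav3 and 0.171 for Map4k1), and both passed DESeq2 (adjusted p = 1.73e-07 and 3e-05). The WT libraries lay above both genotypes for Vav3, at 807 to 1161. Of the Dhet libraries 1 lay within the range of Csf1r_het, at 367, and the other between the genotypes, at 219.

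Genes of inflammatory monocytes were also among them. Ly6c2, a surface antigen that marks these cells, held 14663, 11769 and 21324 normalized counts in Csf1r_het and 2149, 3985 and 3023 in Csf2_het. The Ly6c2 means were 15919 ± 4899.5 and 3052 ± 918 (n = 3 each, log2 difference 2.38, SE 0.42, limma adjusted p = 0.155). Ccr2, the chemokine receptor that draws monocytes from the marrow, held 3626, 3929.6 and 4231 against 515, 950.4 and 790.3. Each Csf1r_het library held more than 3 times the Ccr2 of any Csf2_het library, and the log2 difference of 2.43 (SE 0.45) did not pass (limma adjusted p = 0.2). Ms4a4c, a membrane protein of the CD20 family found on monocytes, held 3225, 3826 and 2667 against 698, 1150.1 and 907 (1.83, SE 0.33, limma adjusted p = 0.175). Ly6c2 passed limma without WT replicate 2, and Ccr2 passed without WT replicate 3 and with only the 6 libraries compared. DESeq2 called all 3, against 0.393% of all genes in this direction, but the 3 had been picked by low p in the same libraries.

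Low p favours groups without overlap, and 5.98% of all genes lay wholly above in Csf1r_het. The other genes that the rule took by low p in this direction did not overlap between the groups either, and none passed limma. They were Slfn1, a gene of the Schlafen family (log2 difference 2.17), the lymphocyte adhesion regulator Cytip (1.49), the lysosomal phospholipase-like gene Plbd1 (1.56) and the liver-type glycogen phosphorylase Pygl (1.64). The C-type lectin Clec12a, an inhibitory receptor for uric acid crystals, reached 1.56, and the activating paired immunoglobulin-like receptor Pira2 reached 2.74. Adjusted p in limma ran from 0.236 for Slfn1 to 0.279 for Pira2. Pira2 belongs to a family of close copies, so its count is uncertain. Pygl held 784, 867 and 1051 normalized counts in Csf1r_het and 449, 279 and 188 in Csf2_het, while WT (3080.5 to 3867) and Dhet (2262 to 2760.3) lay above both.

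**Figure D3:**
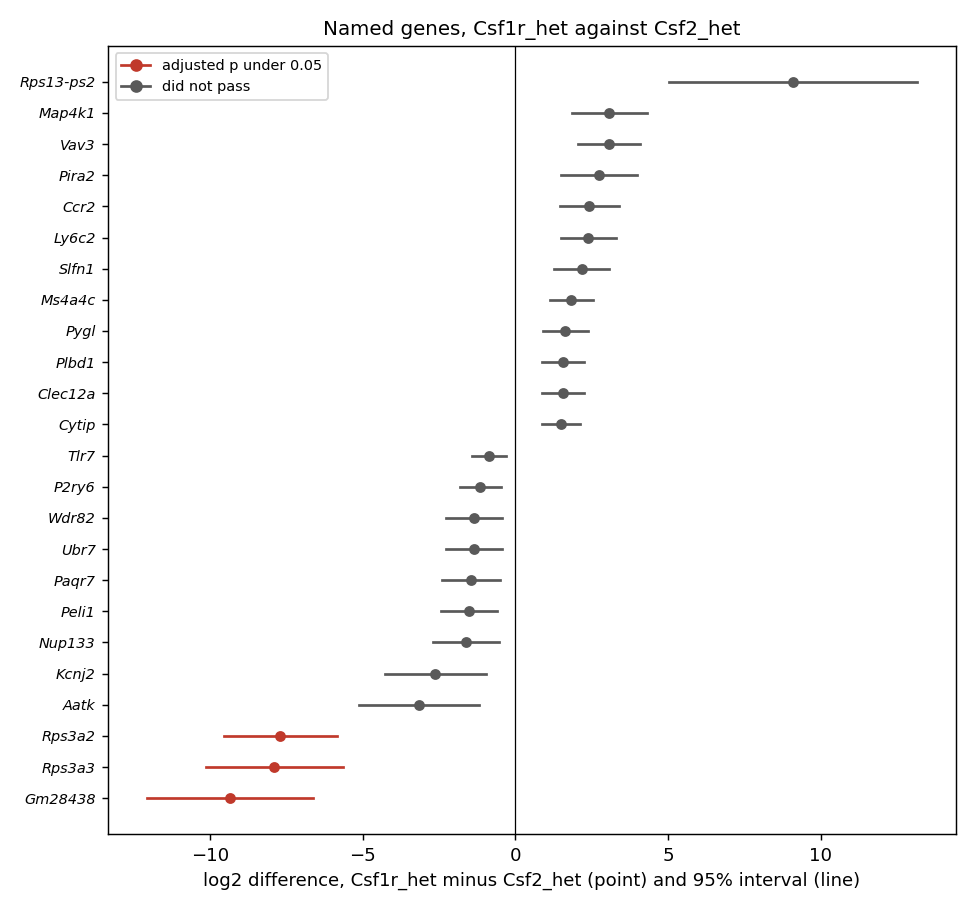
Log2 difference (Csf1r_het minus Csf2_het, point) with its 95% interval (line) for genes named by the lowest p in each direction and Gm28438. The 3 genes in red, Rps3a2, Rps3a3 and Gm28438, passed limma, and the remaining genes did not.

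As a list, the 15 monocyte markers all had a positive log2 difference, with a median of 1.26 against -0.03 over all genes tested, of which 47.7% were positive. Limma called 0 of the 15 (10 at an unadjusted p under 0.05, against 2.53% of all genes in this direction), edgeR called 0 and DESeq2 called 6, against 0.393% of all genes in this direction. In 10 of the 15 the 3 Csf1r_het libraries lay above the 3 Csf2_het libraries, against 5.98% of all genes. The summed level of the list was 85942, 72819.6 and 95277 normalized counts in Csf1r_het and 24561, 33517 and 38407 in Csf2_het, with no overlap. It was 118613 to 421476 in WT and 77086 and 86734 in Dhet. Without any 1 library the median ran from 1.26 to 1.70.

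Single markers within that list varied. Plac8 held 12216, 25489 and 14221 normalized counts in Csf1r_het against 2789, 4574 and 4947 in Csf2_het (log2 difference 2.04, limma adjusted p = 1). Fibronectin, Fn1, was uneven, with 2030.3, 410.4 and 2332 against 238, 371 and 127. Vcan, a matrix proteoglycan of monocytes and oligodendrocyte precursors, was near its floor in Csf2_het, at 0, 0.958 and 0 normalized counts against 79.2, 99.3 and 15.8. These came from 142 and 2 reads, a ratio of 113. Its 95% counting interval, which varied only the 2 reads, ran from 31.2 to 931. Vcan did not pass limma (adjusted p = 0.793). Plac8 and Fn1 were chosen after their values were seen.

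**Figure D4:**
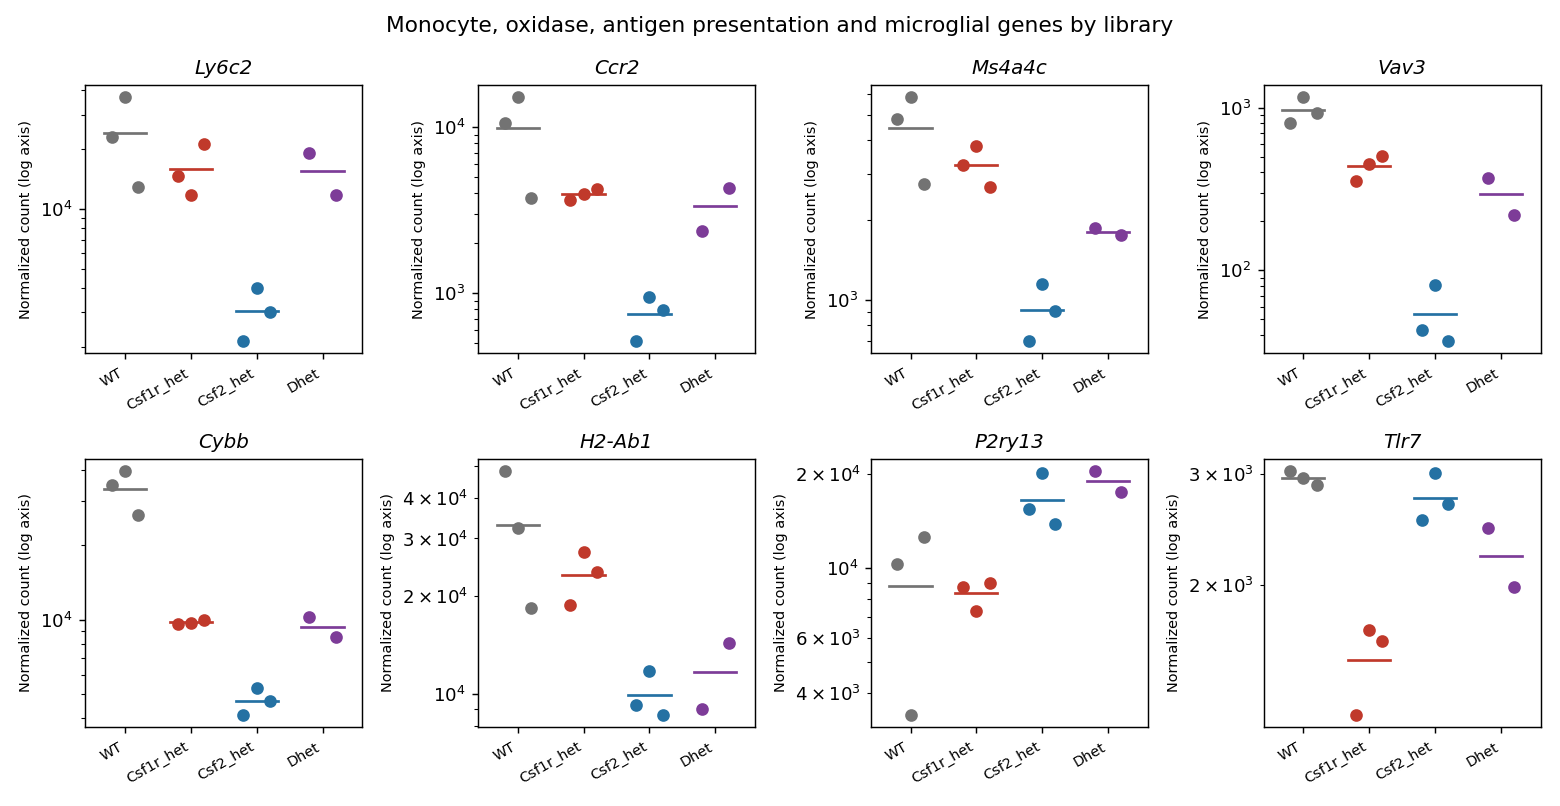
Normalized counts (log axis) of 8 genes in each library (points) by group, with the group mean as a line. Ly6c2, Ccr2, Ms4a4c, Vav3, Cybb and H2-Ab1 lie higher in the 3 Csf1r_het libraries than in the 3 Csf2_het libraries, and P2ry13 and Tlr7 lie lower, without overlap.

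No marker of another cell type passed limma either. Of 7 border macrophage markers tested, 2 lay wholly above in Csf1r_het, against 5.98% of all genes, among them the lectin Clec4n with 123, 526 and 138 normalized counts against 40.7, 30.2 and 1.36 (log2 difference 3.84, SE 1.02, limma adjusted p = 0.793). DESeq2 called Clec4n (adjusted p = 0.0173), and its log2 difference was 2.53 without Csf2_het replicate 3. The summed level of the border macrophage markers was 3016 to 5383 in Csf1r_het and 2883 to 3911 in Csf2_het, and Mrc1, Cd163, Lyve1, Siglec1 and Cd209f were not analysed here. F13a1, a coagulation factor chain found on both border macrophages and monocytes, overlapped (1.54, limma adjusted p = 1). Neutrophil markers summed to 29393 to 496806 and 122534 to 204931, and their median of -0.05 ran from -0.80 to 1.18 as single libraries were left out. T and NK cell markers had a median of 0.74 (0.47 without Csf1r_het replicate 2) with 1 of 12 wholly above, near the share over all genes. All 10 erythroid markers were positive, with a median of 0.49 and none wholly above, and their sums overlapped in part (6958444 to 38705907 summed counts against 4862999 to 18423173), and their median was -0.18 without Csf1r_het replicate 2.

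Antigen presentation genes lay mostly on the side of Csf1r_het. Of 21 genes, 16 were positive with a median of 0.66, and 11 lay wholly above, against 5.98% of all genes. A positive difference with an unadjusted p under 0.05 was found in 7, against 2.53% of all genes. Limma and edgeR called 0 and DESeq2 called 1, Ciita, against 0.393% of all genes. The MHC class II chain H2-Ab1 held 18832, 27329 and 23642 normalized counts in Csf1r_het and 9292, 11819 and 8652 in Csf2_het. The H2-Ab1 groups did not overlap and differed 2.35-fold in the mean (log2 difference 1.23, SE 0.38, limma adjusted p = 1). H2-Eb1, the beta chain of the I-E molecule, held 9198, 13107 and 16057 against 5724, 6403 and 5633 (1.08, SE 0.35, limma adjusted p = 1). H2-Aa (1.15), the invariant chain Cd74 (1.30) and Ciita, the transactivator of class II genes (3.22), were also without overlap and are named after their values were seen. Ciita stood at 197, 492 and 322 against 27.1, 35.4 and 36.8. With the mean of the monocyte markers as a covariate the median of the list was 0.19.

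Interferon response genes showed the same side in nearly all members. Of 26 genes, 25 were positive, against 47.7% of all genes, with a median of 0.89. Of these, 9 lay wholly above (5.98% of all genes) and 7 had an unadjusted p under 0.05 (2.53%). None passed limma, edgeR or DESeq2. Ifi204, a DNA sensor, held 959.7, 1069.8 and 926 normalized counts in Csf1r_het and 384, 541 and 409 in Csf2_het (log2 difference 1.16, SE 0.38, limma adjusted p = 1). Irf7, the transcription factor that amplifies type I interferon, held 998, 2412 and 394 against 301, 313 and 251, so its mean rested on Csf1r_het replicate 2 (1.77, SE 0.60, limma adjusted p = 1). The list's median was 0.67 without Csf1r_het replicate 2. WT lay above both genotypes in 19 of the 26 genes, against 5601 of all 13223.

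Genes of the phagocyte NADPH oxidase, the enzyme complex that makes superoxide, were split. Cybb, its catalytic subunit, was the steadiest, with 9615, 9720.1 and 9996 normalized counts in Csf1r_het and 4136, 5317 and 4712 in Csf2_het. The Cybb groups were tight and separate, 9777 ± 196 and 4721 ± 591 (n = 3 each, log2 difference 1.06, SE 0.28). It did not pass limma (adjusted p = 0.762) and passed DESeq2 (adjusted p = 0.0322). Rac2, the GTPase that switches the complex on in blood cells, held 8421, 7776 and 9034 against 5219.6, 5969.7 and 4309.6 (0.71, SE 0.30, limma adjusted p = 1). Over the 8 genes 6 were positive with a median of 0.31 (0.20 to 0.49 with single libraries left out). Of the 8, 3 lay wholly above, against 5.98% of all genes, and 1 wholly below, against 6.1%. In limma 3 were higher at an unadjusted p under 0.05, against 2.53% of all genes, and 0 were lower. Antioxidant genes had 17 of 20 positive and a median of 0.38, with Prdx5 at 0.67 and the glutathione reductase Gsr at 0.65. Of the 20, 6 lay wholly above and 0 wholly below, against 5.98% and 6.1% of all genes, and none had an unadjusted p under 0.05.

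Complement genes went both ways. C3, the central component, held 824, 560.1 and 1015 normalized counts in Csf1r_het and 297, 417 and 222 in Csf2_het (log2 difference 1.36, SE 0.43, limma adjusted p = 1). C3ar1, the receptor for its C3a fragment, held 2905, 2171 and 2570.0 against 4306, 7112 and 5619 (-1.14, SE 0.44, limma adjusted p = 1). Both were without overlap, and C3ar1 is named after its values were seen. Of the 13 genes, 1 lay wholly above and 2 wholly below in Csf1r_het, against 5.98% and 6.1% of all genes. Properdin, Cfp, which stabilizes the convertase, overlapped in a single library (216 in Csf1r_het replicate 2, against 211, 302 and 95.4 in Csf2_het, log2 difference 1.71, limma adjusted p = 1). The median of the 13 genes was -0.12, close to that of all genes.

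Paired activating and inhibitory receptors of myeloid cells also divided. Of 15 genes 10 were positive, with a median of 0.51 (0.20 without Csf2_het replicate 1). Of the 15, 6 lay wholly above and 2 wholly below, against 5.98% and 6.1% of all genes. Limma called 0 (5 higher and 1 lower at an unadjusted p under 0.05, against 2.53% and 1.94%), edgeR 0 and DESeq2 2, Clec12a and Pira2, against 0.393%. Pilrb1, an activating receptor, reached 1.37 (limma adjusted p = 0.793). Havcr2, the checkpoint receptor TIM-3, stood at 1042, 1099 and 1154 normalized counts in Csf1r_het and 1739, 1536 and 2240.0 in Csf2_het (-0.73, SE 0.26, limma adjusted p = 1). Pilrb1 and Havcr2 were chosen after their values were seen.

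Genes of resting, homeostatic microglia lay on the side of Csf2_het. Of 24 genes 22 were negative, with a median of -0.56, 12 lay wholly below in Csf1r_het against 6.1% of all genes, 4 had an unadjusted p under 0.05 and a negative difference against 1.94% of all genes, and none passed limma, edgeR or DESeq2. P2ry13, an ADP receptor, held 8722, 7299 and 8948 normalized counts in Csf1r_het and 15452, 20126 and 13846 in Csf2_het. The P2ry13 groups did not overlap and differed 1.98-fold in the mean (log2 difference -0.97, SE 0.43, limma adjusted p = 1). P2ry12, the receptor that steers microglial processes to ATP, held 34191, 43210.2 and 36606 against 48809.7, 69352 and 60852 (-0.64, SE 0.39, limma adjusted p = 1). Mertk, which takes up dying cells, overlapped in no library (-0.77, or -0.44 without Csf1r_het replicate 1), and neither did Tmem119 (-0.55, or -0.34 without Csf2_het replicate 2). P2ry12 and Tmem119 were chosen after their values were seen. Without any 1 library the list's median ran from -0.75 to -0.44. The summed level of the list overlapped between the groups, at 1034612 to 1633669 normalized counts in Csf1r_het and 1354312 to 1839767 in Csf2_het. WT had a lower sum, 687038 to 709586, and lay below both genotypes in 22 of the 24 genes, against 4700 of all 13223. In bulk samples fewer cells of a type and less RNA per cell cannot be told apart.

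The mean log2 value of the monocyte markers was also used as a covariate in the fit. The median of the homeostatic list then turned from -0.56 to 0.63 and that of the interferon list from 0.89 to -0.29. Some other lists shifted further, such as oxidative phosphorylation (0.11 to -1.79) and neutrophil markers (-0.05 to 3.09). Phagocyte oxidase genes hardly moved (0.31 to 0.39). The shift was thus not particular to the homeostatic and interferon lists. The summed level of the monocyte markers did not overlap between the genotypes, so covariate and genotype cannot be fully told apart in this fit. With the covariate limma called 0 genes (888 at an unadjusted p under 0.05). The summed monocyte level was 24561 to 38407 in Csf2_het and 72819.6 to 95277 in Csf1r_het, as given above. The part of monocyte-lineage cells in the differences of the homeostatic, interferon and antigen presentation lists was not tested.

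**Figure D5:**
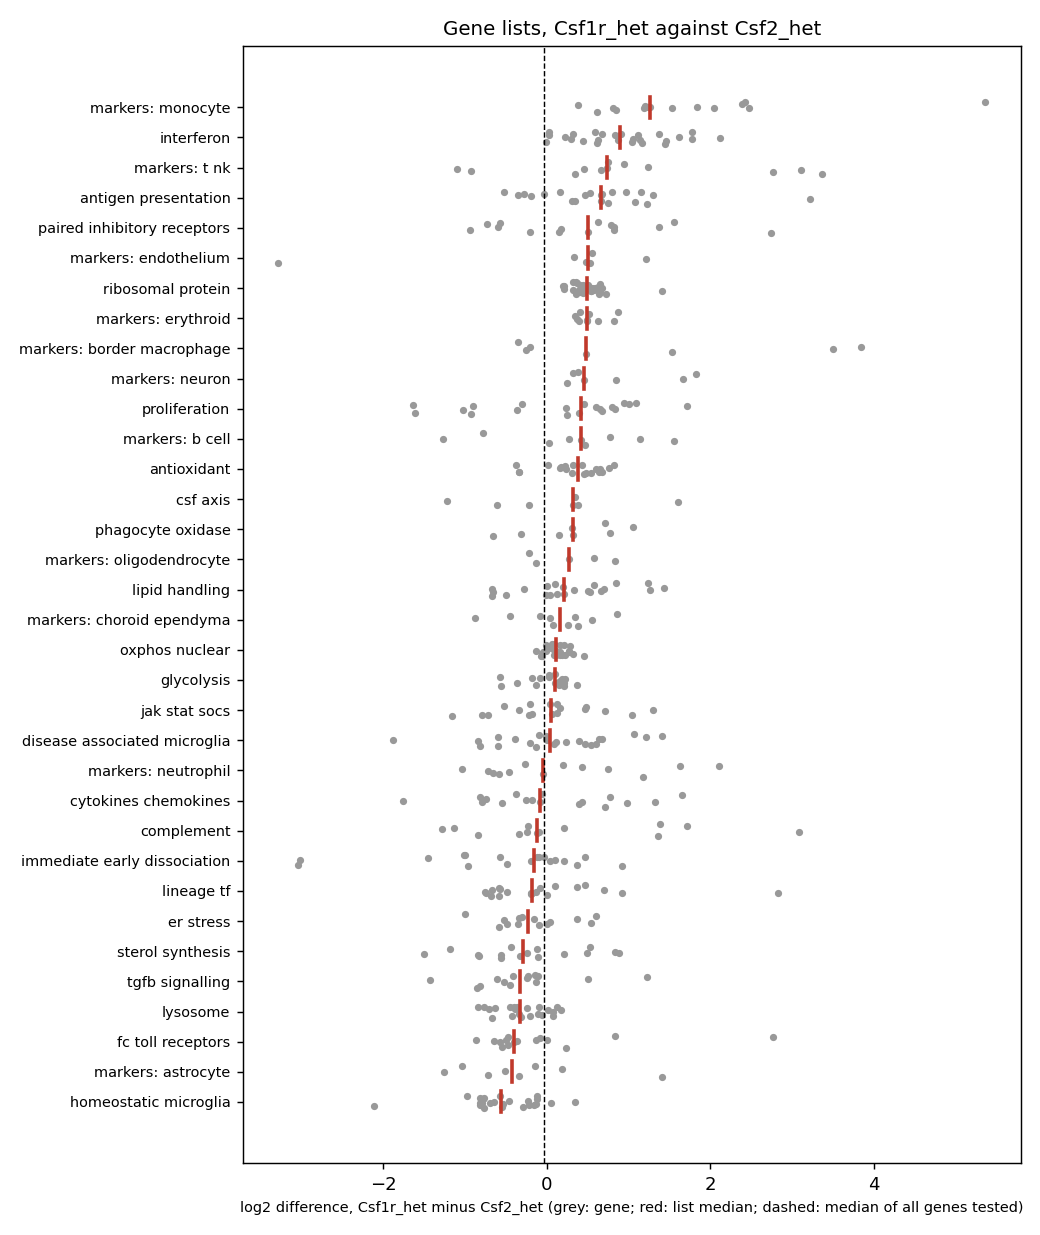
Log2 difference (Csf1r_het minus Csf2_het) of each gene (grey points) in lists with at least 5 genes tested, with the list median (red) and the median of all genes tested (dashed). Monocyte markers have the highest median (1.26) and homeostatic microglia genes the lowest (-0.56) of the lists drawn.

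The protein coding genes lower in Csf1r_het with the lowest p included receptors and signalling genes of microglia, and none passed. P2ry6, the UDP receptor that starts phagocytosis in microglia, held 1638, 2673 and 2268 normalized counts in Csf1r_het and 4744, 4444 and 5085 in Csf2_het. The P2ry6 groups were well apart (log2 difference -1.14, SE 0.31), yet over all genes the difference did not pass (limma adjusted p = 0.793). Tlr7, the endosomal receptor for single-stranded RNA, held 1239.5, 1692 and 1625 against 2535, 3010.2 and 2687 (-0.86, SE 0.25, limma adjusted p = 0.927), while WT held 2882 to 3037, near Csf2_het.

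Wholly below in Csf1r_het lay 6.1% of all genes, and choice by low p favours such a split. The remaining genes of that rule were lower in Csf1r_het in every library without passing. Peli1, a ubiquitin ligase of Toll-like receptor signalling, had a log2 difference of -1.52, the progestin receptor Paqr7 -1.45, the nuclear pore protein Nup133 -1.62, the histone methylation cofactor Wdr82 -1.36 and the ubiquitin ligase Ubr7 -1.36. The kinase Aatk (-3.16) and the potassium channel Kcnj2 (-2.62) owed much of their size to Csf1r_het replicate 2, at 2.96 and 23.7 normalized counts. Csf1r_het replicates 1 and 3 held 33 and 26.3 of Aatk and 260.1 and 297 of Kcnj2, still below the Csf2_het libraries.

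Disease-associated microglia genes, which rise around plaques and in ageing, showed no common side. Of 24 genes 13 were positive with a median of 0.04. Of these, 4 lay wholly above and 4 wholly below, against 5.98% and 6.1% of all genes. Limma called 0 (2 higher and 1 lower at an unadjusted p under 0.05, against 2.53% and 1.94%), edgeR 0 and DESeq2 1, Lgals3, against 0.393%. Lgals3, the carbohydrate-binding galectin-3, held 9520.3, 6481 and 9750.3 normalized counts in Csf1r_het and 2642, 3233 and 3747 in Csf2_het (log2 difference 1.41, SE 0.35, limma adjusted p = 0.709, DESeq2 adjusted p = 0.0398). Ccl6, a chemokine, held 23818, 38571 and 28933 against 10955, 16542 and 16003 (1.07, SE 0.42, limma adjusted p = 1). Lgals3 and Ccl6 are also expressed by monocytes.

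Cytokine genes overlapped as a group, with 7 of 17 positive and a median of -0.08. The inflammatory cytokine Il1b stood at 0.98 (SE 0.43) and the caspase Casp1, which matures it, at 0.77 (SE 0.35), both with a limma adjusted p = 1. The Il1b value ran from 0.50 without Csf2_het replicate 2 to 1.44 without Csf2_het replicate 3. Fc and Toll-like receptors had a median of -0.40 (-0.19 without Csf2_het replicate 2), with Fcgr4, an activating Fc receptor, at 0.83 (0.53 without Csf1r_het replicate 2) and Tlr7 on the other side. Lineage transcription factors had 13 of 20 negative and a median of -0.19. Among these, Mef2a reached -0.59 with overlap. TGF-beta signalling had 12 of 14 negative and a median of -0.33, with the matrix protein Tgfbi at 1.22 and the signal transducer Smad4 at -1.43. Smad4 was lowest in Csf1r_het replicate 2, at 129 normalized counts against 671 and 558 in the other 2, and lay at -0.68 without it.

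No gene of the housekeeping programmes passed limma, edgeR or DESeq2. All 32 ribosomal protein genes were positive, with a median of 0.49, but 1 of them (Rps3a1) had an unadjusted p under 0.05 (2.53% of all genes were higher at that p) and 7 lay wholly above, against 5.98%. Rplp0, of the ribosomal stalk, held 13330.0, 14085 and 17126 normalized counts in Csf1r_het and 9501, 8023 and 9271 in Csf2_het (log2 difference 0.73, SE 0.35, limma adjusted p = 1). The ribosomal median ran from 0.30 to 0.70 as single libraries were left out and was -1.57 with the monocyte covariate. Oxidative phosphorylation (median 0.11) and glycolysis (0.10) had no gene with an unadjusted p under 0.05. Lysosomal genes had 17 of 22 negative (-0.33), and the ER stress gene Herpud1 lay at -0.9999. Lipid handling (0.21), sterol synthesis (-0.29) and immediate early genes (-0.16) had medians near 0, with the scavenger receptor Msr1 at 1.43, the sterol desaturase Sc5d at -1.50 and the shear-responsive factor Klf2 at 0.92. Sc5d lay at -0.61 without Csf1r_het replicate 2. The medians of cytokine, sterol synthesis, glycolysis, oxidative phosphorylation and immediate early genes changed sign when single libraries were left out. Proliferation genes had a median of 0.42 (0.015 without Csf2_het replicate 3) and none with an unadjusted p under 0.05. The Dhet mean lay above both genotypes in all 20 of them, against 5547 of all 13223 genes.

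The count of calls depended on the tool and on single libraries. EdgeR called 2 of 13703 genes (0.0146%; 581 at an unadjusted p under 0.05), Rps3a2 and Rps3a3. DESeq2 called 55 of 13223 (0.416%; 725, or 5.48%, at an unadjusted p under 0.05), 52 higher and 3 lower in Csf1r_het. Limma had 592 genes at an unadjusted p under 0.05 (4.48%), 335 higher and 257 lower. It called 0 genes without Csf2_het replicate 1 (397 unadjusted) or replicate 2 (378 unadjusted), and 1 without Csf2_het replicate 3, Csf1r_het replicate 1 or either Dhet library. Without WT replicate 2 it called 5, with Ly6c2 and Rps13-ps2 added, and with protein coding genes alone it called 0 (515 unadjusted), an alternative added after seeing the data. Vav3 (adjusted p = 0.0694) was the 1 further gene with a limma adjusted p under 0.1.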

How the data were processed

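RNA from Tmem119+ cerebral microglia was sequenced in 11 libraries. The submitters' processing notes name kallisto 0.43.1, the build mm10 and DESeq2 (version not given in the sources used here). Each value of the deposited signal is a gene's count in a library after the authors' division by a size factor. In each library 100% of values were whole multiples of 1 step within 0.02 reads, which gave whole reads and depth (21037819 to 53081638). The 95% intervals of log2 differences came from limma and cover the spread between libraries. Floors (3 reads over a group) and the interval of the Vcan ratio (95%, exact for the Csf2_het reads alone) cover counting error only.

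Groups came from the sample titles. Genes with a mean of at least 10 were tested with limma 3.58.1 (R 4.3.3, trended prior, 7 residual and 5.90 prior degrees of freedom) on log2(normalized count + 1), a scale that understates fold changes of low genes. A single fit covered the 4 groups, with the contrast Csf1r_het minus Csf2_het and Benjamini-Hochberg adjustment at 0.05 over all genes. EdgeR 4.0.16 and DESeq2 1.42.0 on the recovered reads were alternatives, the fit was tested on simulated data, and 175 DESeq2 adjusted p-values were not given. The other alternatives were filters, pseudocounts, scalings, covariates, a replicate block, libraries left out and summed copies.

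Named genes were all CSF ligands and receptors. To these came, per direction, 12 genes (called first by size, then by lowest p) with a mean of at least 50, skipping predicted names (2 in each direction), and up to 4 called or the 2 lowest-p members of each list. A few genes so chosen are left out of the text. Members and lists were chosen with earlier results of these data known. Copies were compared in GENCODE vM21 transcripts (GRCm38), and coordinates are those of the deposited table. No set test was run.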

Additional observations from a re-analysis of the deposited data

How the results depend on the processing

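Limma called 3 genes, 0 higher and 3 lower in Csf1r_het. DESeq2 called 55, 52 of them higher. With only the 6 libraries compared, limma called 2 higher genes. It called 0 genes, and 0 lower, without Dhet (596 at an unadjusted p under 0.05), with the mean of the monocyte markers as covariate (888), with protein coding genes only (515) or with the Rps3a genes summed (589). With the share of haemoglobin as a covariate it called 1, lower. With 1 library left out at a time, calls ran from 0 to 5 in all, 0 to 2 higher and 0 to 3 lower. The replicate numbers did not pair the samples (correlations of deviations -0.014, -0.070 and 0.028 for the 3 numbers). With the replicate block limma called 0 genes (511 at an unadjusted p under 0.05), 0 of them lower, against 3 without it. The cause of these differences was not tested, except that fewer genes or libraries entered some fits. Of 73 named genes, 51 kept their direction in all settings, and 27 of 1962 values turned. With the monocyte covariate these were Csf1 (1.23), Csf2ra (-0.25), Csf3r (0.33), P2ry13 (0.41), Ccl6 (-0.28), Ifi204 (-0.079), Casp1 (-0.034), Rps3a1 (-0.13), Rplp0 (-0.28), Tgfbi (-0.63), Klf2 (-0.24), F13a1 (-0.49), Prdx5 (-0.53), Tmem119 (0.78), P2ry12 (0.15), Fn1 (-1.29), Plac8 (-0.53), H2-Aa (-0.36), C3ar1 (0.089), mt-Nd3 (-0.72) and Rps13 (-2.27). The mt-Nd3 value was also negative with edgeR (-0.32), DESeq2 (-0.32), the haemoglobin covariate (-0.21) and without Csf2_het replicate 2 (-0.63). Csf1 was 0.051 without Csf1r_het replicate 1. With 1 library left out, Csf2rb2 ran from -0.071 (without Csf1r_het replicate 2) to 0.59, and mt-Nd3 from -0.63 to 1.16. Centring each library on its median moved the median of all genes from -0.03 to 0.02. Group size limits what can be seen, since the 3226 genes whose mean reached 1000 still had a median 95% interval of 0.813 to either side.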
